A study of Oryza sativa with 12 samples.

Results

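A set of 10 loci that regulate the iron deficiency response of rice was followed through root libraries treated with the peptide signal PEP1. They are a list of locus IDs with a role in that response, drawn up with earlier results of these data known, and all 10 were found among the 57265 features of the deposited count table. They comprise the bHLH transcription factors IRO2 (LOC_Os01g72370), IRO3 (LOC_Os03g26210), bHLH156 (LOC_Os04g31290), PRI1 (LOC_Os08g04390), PRI2 (LOC_Os05g38140) and PRI3 (LOC_Os02g02480). To these come the transcription factors IDEF1 (LOC_Os08g01090) and IDEF2 (LOC_Os05g35170) and the iron-binding ubiquitin ligases HRZ1 (LOC_Os01g49470) and HRZ2 (LOC_Os05g47780). By their locus IDs they lie on chromosomes 1, 2, 3, 4, 5 and 8. All 10 passed the filter on low counts, as did 25602 features in all.

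RNA was taken from roots of 7-day-old greenhouse seedlings of the rice cultivar XS134. The 4 groups were wild type with ethanol, wild type with 1 µM PEP1, OsPEP1 RNAi line 1 with ethanol and OsPEP1 RNAi line 1 with 1 µM PEP1, with 3 libraries each. The RNAi plants are a single transgenic line, and neither the duration of the treatment nor the locus of OsPEP1 is given in the sources used here, so the silencing itself was not checked. Nothing in the labels states whether a group's 3 libraries derive from separate plants or cultures. The p-values therefore cover the spread among these libraries alone, which may be technical.

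Rice takes up iron both as the ion and as a chelate with phytosiderophores, which its roots make from nicotianamine and secrete. When iron is scarce, the PRI factors act upstream and bind the promoters of IRO2 and IRO3. IRO2, together with its partner bHLH156, which brings it into the nucleus, drives the genes of phytosiderophore synthesis and uptake, whereas IRO3 acts as a negative regulator. HRZ1 and HRZ2 bind iron and restrain the response, and PRI proteins are among their targets for degradation. IDEF1 and IDEF2 bind iron deficiency-responsive promoter elements. In plants grown under low iron, transcripts of IRO2, IRO3, bHLH156 and the HRZ genes are known to rise, while those of the PRI and IDEF genes are known to respond little.

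Total counts ran from 15368736 to 21317008 per library. The regulators were well covered, from 127 reads for PRI3 in its lowest library to 30276 reads for IRO2 in its highest. Wild type ethanol replicate 1, RNAi ethanol replicate 2 and RNAi PEP1 replicate 2 had been singled out in an earlier analysis of these data as standing apart. Some results for the regulators are also given without them. Changes of the markers and of listed genes outside the 10 regulators are given with all libraries only. The 5 root markers listed (RCc3, Lsi1, Lsi2, SHR1 and SCR1) had reads in every library. The 3 shoot markers (CAB2R, CAB1R and RCA) did so too, and their summed level ran from 23.3 to 281 CPM in wild type ethanol, 79.7 to 185 in wild type PEP1, 10.3 to 65.3 in RNAi ethanol and 55.3 to 744 in RNAi PEP1, with the highest value in replicate 2 of the last group. In the RNAi line all 3 shoot markers had higher mean levels under PEP1, with log2 changes of 3.86 (CAB2R), 2.86 (CAB1R) and 4.13 (RCA), though none passed (edgeR adjusted p = 0.0669 to 0.104). Their wild type changes, from -0.42 to 0.49, did not pass either. Of the 5 root markers, the silicon transporters Lsi1 and Lsi2 rose in the wild type (log2 changes of 1.62 and 2.23, edgeR adjusted p = 0.0174 and 0.0102), and RCc3 (-0.52), SHR1 (0.04) and SCR1 (-0.01) did not pass. None of the 5 passed in the RNAi line, where the changes were 0.65 for Lsi1, 1.04 for Lsi2, -0.83 for RCc3, -0.62 for SHR1 and -0.38 for SCR1. The part of these markers in the results was not tested. Levels are in CPM, read counts relative to the library total after scaling by TMM factors.

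Under PEP1 the 3 bHLH factors IRO2, IRO3 and bHLH156 and both HRZ ligases fell in each genotype, to between 5.07% and 32.8% of the ethanol level. The PRI factors and IDEF2 had higher mean levels under PEP1 in each genotype, and these rises passed the test in the RNAi line. IDEF1 did not pass in either genotype. By the quasi-likelihood test of edgeR, with p adjusted over all genes tested and a threshold of 0.05, 5 of the 10 passed in the wild type, all lower. The background there was 5.19% of all genes tested, 2.66% lower and 2.54% higher. In the RNAi line 9 passed, 5 lower and 4 higher, against 15.4% of all genes, 6.68% lower and 8.68% higher. The treatment groups did not overlap for 7 of the 10 in the wild type (20.9% of all genes) and for 9 in the RNAi line (41.5% of all genes). The median log2 change of the 10 was -0.96 in the wild type and -0.93 in the RNAi line, beside 0.00 and -0.01 over all genes tested. These medians fall in the gap between the 5 falling regulators and the rest, and no single regulator lay near them. These are bulk samples, in which fewer cells of a type and less RNA per cell cannot be told apart.

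**Figure D1:**
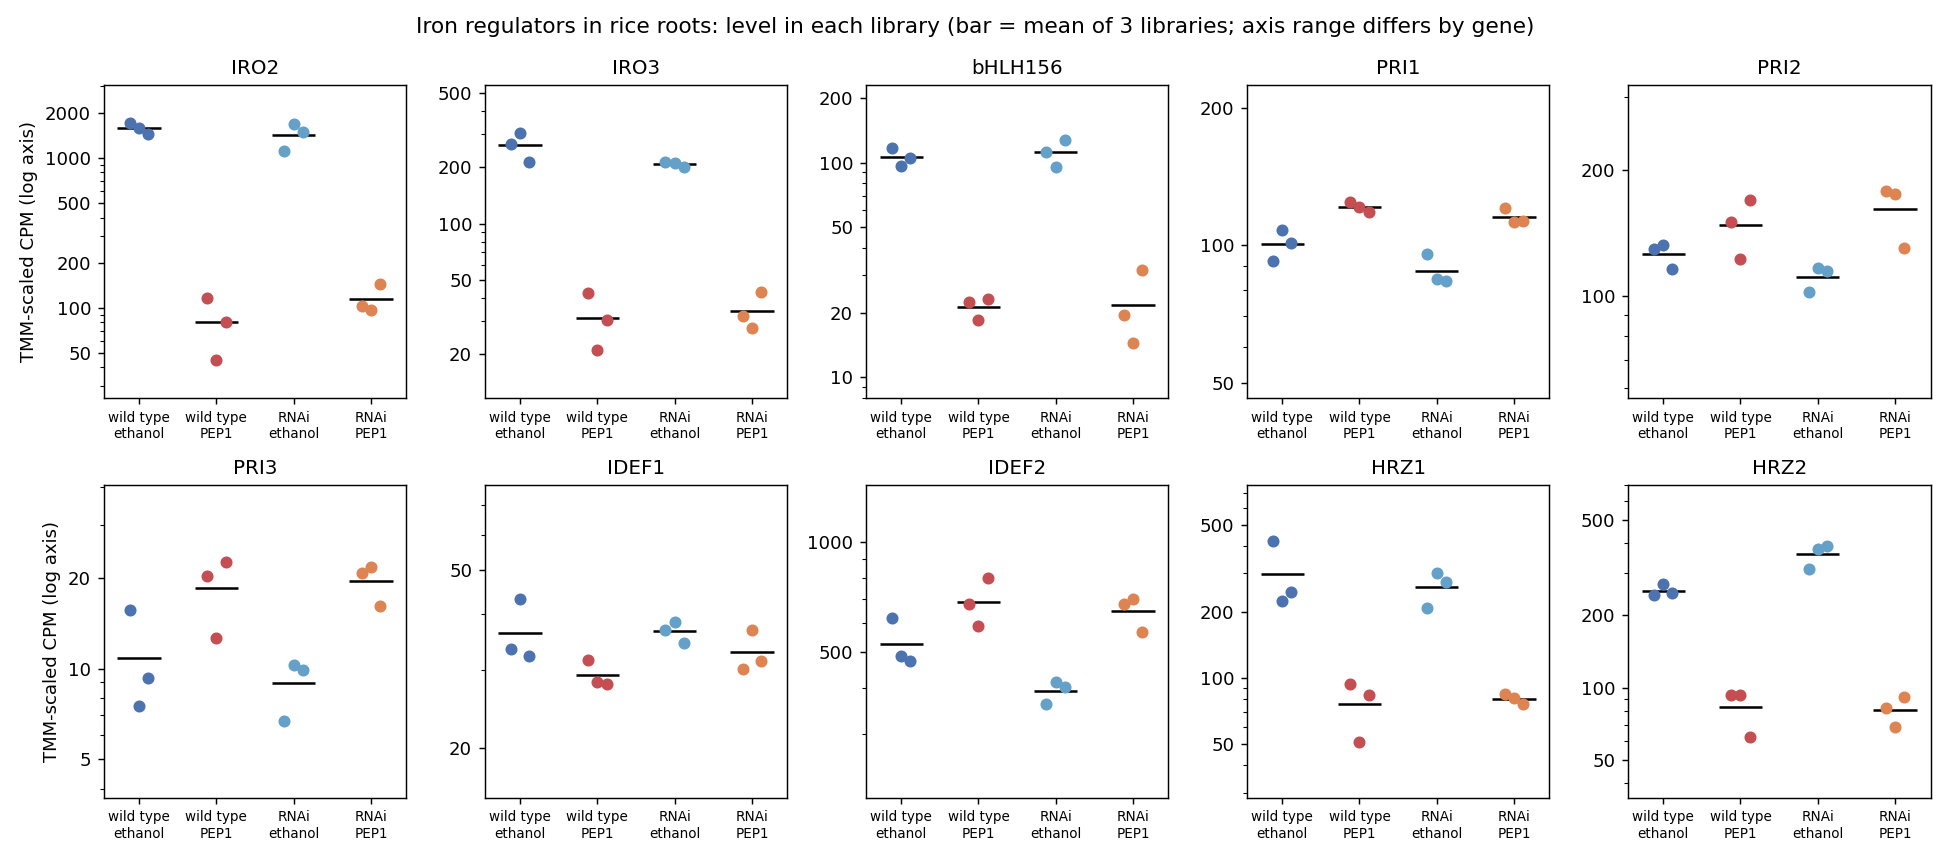
Each panel shows 1 regulator, with TMM-scaled CPM on a log axis whose range differs by gene, points for the 3 libraries of each group and a bar for their mean. IRO2, IRO3, bHLH156, HRZ1 and HRZ2 are lower in every PEP1 library than in every ethanol library. The PRI factors and IDEF2 have higher means under PEP1 in both genotypes, by smaller steps, and IDEF1 has slightly lower ones.

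IRO2, the factor that drives phytosiderophore genes, fell most among the 10. In wild type ethanol its level was 1706, 1586 and 1443 CPM in replicates 1 to 3, and under PEP1 it was 115, 44.9 and 79.7 CPM. RNAi libraries held 1114, 1693 and 1481 CPM under ethanol and 103, 96.6 and 143 CPM under PEP1. The treatments did not overlap in either genotype, and the highest PEP1 library held less than any ethanol library. The group mean went from 1579 ± 132 to 80.0 ± 35.2 CPM in the wild type (mean ± SD, n = 3 each) and from 1429 ± 293 to 114 ± 25.0 CPM in the RNAi line. IRO2 fell by 4.30 ± 0.35 on the log2 scale in the wild type (SE, edgeR adjusted p = 7.67e-05) and fell by 3.64 ± 0.34 in the RNAi line (edgeR adjusted p = 0.000181).

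IRO3, the negative regulator, fell as well. Its wild type levels were 266, 306 and 213 CPM under ethanol and 42.7, 21.0 and 30.3 CPM under PEP1. Those of the RNAi line were 215, 211 and 200.3 CPM under ethanol and 31.95, 27.6 and 42.8 CPM under PEP1. Again no PEP1 library reached an ethanol library. The log2 change was -3.06 ± 0.26 in the wild type (SE, edgeR adjusted p = 0.000116) and -2.61 ± 0.26 in the RNAi line (edgeR adjusted p = 0.000280).

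The fall of bHLH156, the partner of IRO2, was nearly the same size in both genotypes. Wild type libraries held 117, 96.8 and 105 CPM under ethanol and 22.5, 18.4 and 23.1 CPM under PEP1. RNAi libraries held 112, 95.5 and 128 CPM under ethanol and 19.5, 14.4 and 31.5 CPM under PEP1. The level under PEP1 was 20.04% of the ethanol level in the wild type and 19.5% in the RNAi line. The log2 changes were -2.32 ± 0.25 (SE, edgeR adjusted p = 0.000530) and -2.36 ± 0.25 (edgeR adjusted p = 0.000415).

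Both iron sensors of the set fell with the bHLH factors whose response they restrain. HRZ1 had 424, 225 and 246 CPM in wild type ethanol, against 93.6, 51.1 and 84.0 CPM in wild type PEP1. RNAi libraries had 208, 300.1 and 274 CPM under ethanol and 84.3, 81.4 and 76.0 CPM under PEP1. The wild type ethanol libraries of HRZ1 were spread widely by replicate 1, but no treatment groups overlapped. HRZ1 fell by 1.97 ± 0.28 on the log2 scale in the wild type (SE, edgeR adjusted p = 0.00260) and fell by 1.69 ± 0.28 in the RNAi line (edgeR adjusted p = 0.00442).

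HRZ2 went from 243, 269 and 248 CPM in wild type ethanol to 93.3, 93.4 and 62.5 CPM in wild type PEP1. The RNAi line went from 312, 377 and 389 CPM to 81.9, 68.3 and 91.8 CPM. The PEP1 groups of the genotypes covered much the same range, while the ethanol level of every RNAi library lay above that of every wild type library. HRZ2 fell by 1.61 ± 0.18 in the wild type (SE, edgeR adjusted p = 0.000609) and fell by 2.16 ± 0.18 in the RNAi line (edgeR adjusted p = 0.000104).

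These 5 falls passed in each of the 19 alternative settings in both genotypes, with IRO2 between -4.66 and -4.02 in the wild type and between -3.84 and -3.39 in the RNAi line. Without the 3 libraries that stood apart, IRO2 changed by -4.26 in the wild type and -3.39 in the RNAi line, and HRZ1 by -1.64 and -1.59. Without RNAi PEP1 replicate 2, the library with the highest shoot marker level, the RNAi falls of IRO2, IRO3, bHLH156, HRZ1 and HRZ2 were -3.53, -2.48, -2.13, -1.70 and -2.05.

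**Figure D2:**
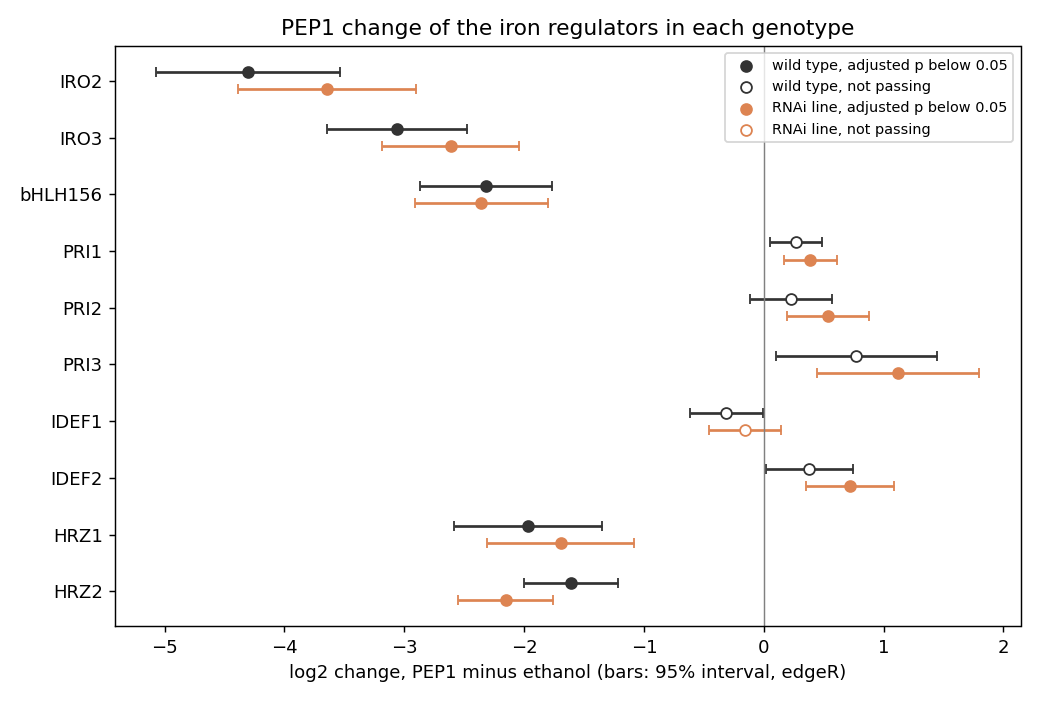
Log2 change from ethanol to PEP1 for each regulator (horizontal axis) with its 95% interval from edgeR, in the wild type (dark) and the RNAi line (orange), filled where the adjusted p was below 0.05. IRO2, IRO3, bHLH156, HRZ1 and HRZ2 lie left of 0 in both genotypes, from -4.30 for wild type IRO2 to -1.61 for wild type HRZ2, and the PRI factors and IDEF2 lie right of 0, filled in the RNAi line alone.

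The PRI factors, which act upstream of IRO2 and IRO3, moved the other way, with changes smaller than the falls of IRO2 and IRO3. PRI1 had 92.4, 108 and 101 CPM in wild type ethanol and 124, 121 and 118 CPM in wild type PEP1. In RNAi libraries PRI1 had 95.8, 84.6 and 83.6 CPM under ethanol and 121, 112 and 113 CPM under PEP1. Every PEP1 library of PRI1 was above every ethanol library of its genotype. PRI1 rose by 0.39 ± 0.10 on the log2 scale in the RNAi line (SE, edgeR adjusted p = 0.0273), and its wild type change of 0.27 ± 0.10 did not pass (edgeR adjusted p = 0.164).

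PRI2 had 129.6, 132.5 and 116 CPM in wild type ethanol and 150.2, 122 and 170.2 CPM in wild type PEP1, where replicate 2 fell within the ethanol range. In RNAi libraries PRI2 had 102, 116 and 115 CPM under ethanol and 178, 175 and 129.96 CPM under PEP1, with no overlap. It rose by 0.54 ± 0.16 in the RNAi line (SE, edgeR adjusted p = 0.0420) and changed by 0.23 ± 0.16 in the wild type (edgeR adjusted p = 0.472).

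PRI3 showed the largest log2 change of the 3 PRI factors. It had 15.7, 7.499 and 9.31 CPM in wild type ethanol and 20.2, 12.6 and 22.6 CPM in wild type PEP1. RNAi libraries had 6.71, 10.3 and 9.86 CPM under ethanol and 20.7, 21.7 and 16.2 CPM under PEP1. Wild type ethanol replicate 1 lay above PEP1 replicate 2, so the wild type groups overlapped, and the RNAi groups did not. PRI3 rose by 1.12 ± 0.31 in the RNAi line (SE, edgeR adjusted p = 0.0343), and its wild type change of 0.77 ± 0.30 did not pass (edgeR adjusted p = 0.193). Without wild type ethanol replicate 1 the wild type change was 1.12 and passed (edgeR adjusted p = 0.0356), and it also passed without the 3 libraries that stood apart (1.12, edgeR adjusted p = 0.0463).

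IDEF2, a NAC factor, followed the PRI pattern and IDEF1, of the ABI3/VP1 family, did not. IDEF2 had 619, 489.6 and 472 CPM in wild type ethanol and 675, 588 and 796 CPM in wild type PEP1, with PEP1 replicate 2 below ethanol replicate 1. RNAi libraries of IDEF2 had 361, 415 and 402 CPM under ethanol and 676, 699 and 568 CPM under PEP1, with no overlap. It rose by 0.72 ± 0.17 in the RNAi line (SE, edgeR adjusted p = 0.0180), and its wild type change of 0.38 ± 0.16 did not pass (edgeR adjusted p = 0.232).

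IDEF1 had 33.3, 43.2 and 32.2 CPM in wild type ethanol and 31.5, 28.1 and 27.9 CPM in wild type PEP1. RNAi libraries had 36.8, 38.4 and 34.4 CPM under ethanol and 30.1, 36.9 and 31.4 CPM under PEP1, where the groups overlapped. The wild type groups of IDEF1 were apart by a narrow margin. Its log2 change was -0.31 ± 0.14 in the wild type (SE, 95% interval -0.61 to -0.01, edgeR adjusted p = 0.242) and -0.16 ± 0.14 in the RNAi line (-0.46 to 0.14, edgeR adjusted p = 0.446).

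The calls of the 4 rises in the RNAi line depended on single libraries. All 4 were lost without RNAi ethanol replicate 3, without RNAi PEP1 replicate 1, without RNAi PEP1 replicate 2 and without the 3 libraries that stood apart. In those fits 5 regulators passed in the RNAi line, all lower, in place of 9. Without RNAi ethanol replicate 1, and likewise without RNAi ethanol replicate 2, 6 passed. The number was 7 without wild type PEP1 replicate 1 and 8 without wild type ethanol replicate 3. The changes themselves stayed above 0 in every alternative, from 0.35 to 0.45 for PRI1, 0.46 to 0.67 for PRI2, 0.95 to 1.24 for PRI3 and 0.66 to 0.81 for IDEF2. Without RNAi PEP1 replicate 2, with its high shoot markers, they were 0.41, 0.48, 1.04 and 0.66. With the replicate number as a block, PRI2 (0.53, edgeR adjusted p = 0.0732) and PRI3 (1.11, edgeR adjusted p = 0.0565) no longer passed in the RNAi line, which left 7 passing regulators.

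**Figure D3:**
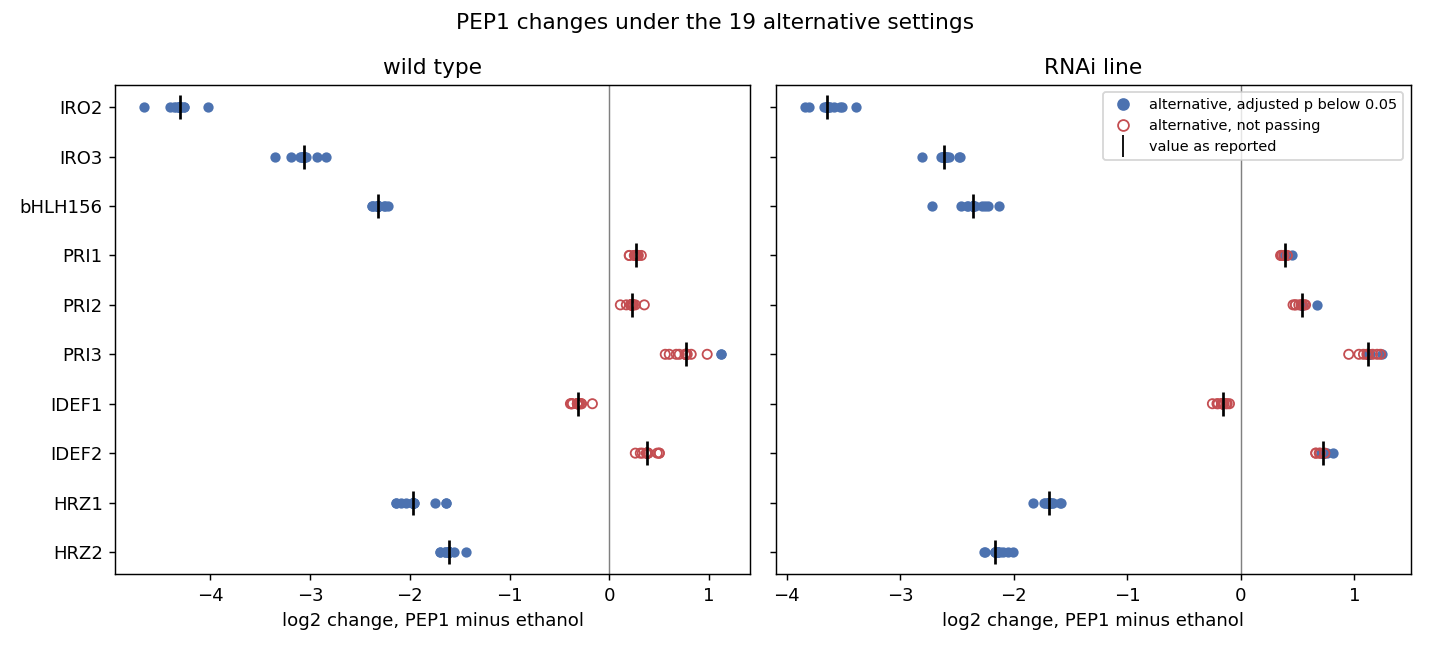
Log2 change from ethanol to PEP1 (horizontal axis) of each regulator under 19 alternative settings, filled where the adjusted p was below 0.05 and open where it was not, with the value as reported as a black tick. The 5 falling regulators are filled throughout in both genotypes, and the PRI factors and IDEF2 stay right of 0 with both filled and open points in the RNAi line.

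The rises shared their sign in both genotypes. The PEP1 change was therefore also averaged over the genotypes within the same fit, a contrast chosen after the values had been seen. In it 9 of the 10 regulators passed, 5 lower and 4 higher, against 24.9% of all genes, 11.8% lower and 13% higher. PRI1 rose by 0.33 ± 0.07 (SE, edgeR adjusted p = 0.00764), PRI3 by 0.95 ± 0.22 (edgeR adjusted p = 0.0105) and IDEF2 by 0.55 ± 0.12 (edgeR adjusted p = 0.00730), and these 3 passed in every alternative run for this contrast. PRI2 rose by 0.38 ± 0.11 (edgeR adjusted p = 0.0284). It no longer passed in 9 of the 18 alternatives. IDEF1 changed by -0.23 ± 0.10 and did not pass (edgeR adjusted p = 0.0995).

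The falls differed in size between regulators. To compare them, the log2 ratio of 2 regulators was taken within each library, where scaling and gene length cancel, and its PEP1 change was tested by a two-sided exact permutation test that exchanged treatments within each genotype. All 45 pairs were tested, with p-values adjusted over the pairs. Like the averaged contrast, these tests were not planned. The test statistic was the mean of the changes in the wild type and the RNAi line, so each p covers that mean and neither genotype alone. The smallest p the 400 permutations allow is 0.005. It was reached by 34 of the 45 pairs, which therefore share 1 adjusted p, and 41 pairs passed. Pairs of a falling regulator with a PRI or IDEF factor restate the changes given above. Pairs of other genes were not tested, so the number passing has no background. The ratio of IRO2 to IRO3 changed by -1.30 in the wild type and -1.01 in the RNAi line (adjusted p = 0.00662, exact permutation test), so IRO2 fell more than its negative regulator. IRO2 to HRZ1 changed by -2.45 and -1.97 (adjusted p = 0.00662, exact permutation test). IRO3 also fell more than both ligases, with changes of -1.15 and -0.96 against HRZ1 and -1.47 and -0.48 against HRZ2 (adjusted p = 0.00662 each, exact permutation test).

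Among the smaller changes the order was less certain. IRO3 fell more than bHLH156 (mean change of the ratio -0.50, adjusted p = 0.0404, exact permutation test), and bHLH156 more than HRZ2 (-0.48, adjusted p = 0.0494, exact permutation test). Each call was lost in 10 of 13 sets of libraries with 1 or more left out. The first ratio changed by -0.78 in the wild type and -0.21 in the RNAi line, the second by -0.69 and -0.27. The ratio of bHLH156 to HRZ1 had a larger mean change, -0.56, which did not pass (adjusted p = 0.0643, exact permutation test). The ratio of HRZ1 to HRZ2 changed by -0.32 in the wild type and 0.48 in the RNAi line, with a mean of 0.08 that did not pass (adjusted p = 0.8, exact permutation test). PRI3 rose more than PRI2, by 0.60 on the log2 scale on average (ratio of PRI2 to PRI3 -0.60, adjusted p = 0.0125, exact permutation test). IDEF1 and IDEF2 diverged, as their ratio changed by -0.68 and -0.88 (adjusted p = 0.00662, exact permutation test).

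In level, summed over IRO2, IRO3 and bHLH156, the transcript pool ran from 1761 to 2089.5 CPM in wild type ethanol and from 84.3 to 181 CPM in wild type PEP1. The summed PRI level ran from 226 to 248 CPM in wild type ethanol and from 256 to 311 CPM in wild type PEP1. In the RNAi line the first sum ran from 1440.2 to 1999 CPM under ethanol and from 139 to 217 CPM under PEP1, and the PRI sum from 204 to 211 CPM and from 259 to 319.9 CPM. No treatment groups overlapped in either sum. Among single genes this was so for 20.9% in the wild type and 41.5% in the RNAi line. The first sum is mostly IRO2, which gave 1706 of 2089.5 CPM in wild type ethanol replicate 1. In the wild type no single PRI factor passed, and the groups of PRI2 and of PRI3 overlapped.

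Genotype was compared next, at each treatment. None of the 10 regulators passed between the RNAi line and the wild type under ethanol in edgeR (0 in DESeq2 and in limma-voom), against a background of 3.79% of genes, 2.16% higher and 1.63% lower. At an unadjusted p below 0.05 there were 2 of 10, beside 14.1% of all genes. The 2 were HRZ2 and IDEF2, the regulators whose ethanol groups did not overlap, as was so for 17.3% of all genes. HRZ2 stood at 359 ± 41.7 CPM in the RNAi line and 253 ± 14.2 CPM in the wild type (mean ± SD, n = 3 each), a log2 difference of 0.50 ± 0.17 (SE, 95% interval 0.12 to 0.89, edgeR adjusted p = 0.191). IDEF2 stood at 393 ± 28.2 and 527 ± 80.2 CPM, a log2 difference of -0.42 ± 0.16 (95% interval -0.79 to -0.06, edgeR adjusted p = 0.261). For IRO2 the difference under ethanol was -0.14 ± 0.30 (95% interval -0.81 to 0.53, edgeR adjusted p = 0.893).

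Under PEP1 none of the 10 passed between the genotypes in edgeR (0 at an unadjusted p below 0.05, beside 9.18% of all genes, and 0 in DESeq2 and in limma-voom), against 2.65% of all genes, 1.52% higher and 1.14% lower. No regulator had genotype groups that did not overlap, beside 16% of all genes. The log2 differences ran from -0.08 for IDEF2 to 0.51 ± 0.30 for IRO2, whose 95% interval reached from -0.16 to 1.19. HRZ2, which differed most under ethanol, stood at 80.7 ± 11.8 CPM in the RNAi line and 83.1 ± 17.8 CPM in the wild type under PEP1.

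Whether PEP1 acted differently by genotype was tested as an interaction. None of the 10 passed in edgeR (0 in DESeq2 and in limma-voom), and over all genes 0.00391% passed. At an unadjusted p below 0.05 there was 1 of 10, beside 5.28% of all genes. That 1 was HRZ2, whose fall was larger in the RNAi line by 0.55 ± 0.25 on the log2 scale (interaction -0.55, 95% interval -1.09 to -0.00, edgeR adjusted p = 0.932). For IRO2 the interaction was 0.66 ± 0.43 (95% interval -0.29 to 1.61, edgeR adjusted p = 0.959), and for bHLH156 -0.04 ± 0.34 (-0.79 to 0.71, edgeR adjusted p = 0.997). A rise that passed in the RNAi line and not in the wild type was therefore not shown to differ between them, with interactions of 0.12 ± 0.14 for PRI1, 0.31 ± 0.22 for PRI2, 0.35 ± 0.43 for PRI3 and 0.34 ± 0.23 for IDEF2 (edgeR adjusted p = 0.959 or more).

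Most of the listed genes of iron acquisition fell alongside IRO2. The list was chosen with earlier results of these data known. The list comprised 12 loci of phytosiderophore synthesis, secretion and metal uptake (NAS1, NAS2, NAS3, NAAT1, DMAS1, TOM1, YSL15, YSL2, IRT1, IRT2, NRAMP1 and ENA1). In edgeR 10 of the 12 fell in the wild type and 11 in the RNAi line, and none rose. Over all genes tested, 2.66% fell in the wild type and 6.68% in the RNAi line. The median log2 change of the list was -4.83 and -4.20, against 0.00 and -0.01 over all genes tested. The largest change was that of the iron transporter IRT2 (LOC_Os03g46454), at -6.80 ± 0.54 in the wild type (edgeR adjusted p = 7.35e-05). Its size rests on low counts, as wild type PEP1 replicates 1 to 3 held 34, 4 and 12 reads of IRT2. The smallest change was that of the nicotianamine synthase NAS3 (LOC_Os07g48980), at -0.37 ± 0.16 in the wild type (edgeR adjusted p = 0.240). In the RNAi line the change of NAS3 had the opposite sign, 0.38 ± 0.16, and did not pass (edgeR adjusted p = 0.130). The interaction for NAS3 was 0.75 ± 0.23 (edgeR adjusted p = 0.722). Summed over the list, the level was 8600.5 to 13528 CPM in wild type ethanol and 186 to 603 CPM in wild type PEP1. The highest ethanol library was replicate 1, which led its group for 10 of the 12 loci. The lowest PEP1 library was replicate 2. It was the lowest of its group for all 12 uptake loci and for 7 of the 10 regulators, IRO2, IRO3, bHLH156 and HRZ1 among them. Wild type PEP1 replicate 2 was not among the libraries singled out earlier as standing apart. With that library left out alone, 5 regulators passed in the wild type, as in the full fit.

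IRON MAN peptides bind HRZ ligases and keep them from their targets. The loci listed for them, IMA1 and IMA2, parted; their names could not be checked against the RefSeq gene table. IMA1 (LOC_Os01g45914) had 181, 358 and 337 CPM in wild type ethanol and 12.9, 2.85 and 6.75 CPM in wild type PEP1. RNAi libraries of IMA1 had 174, 106 and 135 CPM under ethanol and 6.32, 5.03 and 10.997 CPM under PEP1. It fell by 5.28 ± 0.56 on the log2 scale in the wild type (SE, edgeR adjusted p = 0.000420) and fell by 4.21 ± 0.53 in the RNAi line (edgeR adjusted p = 0.00107). IMA2 (LOC_Os07g04910) did not pass, with changes of -0.61 ± 0.23 (edgeR adjusted p = 0.170) and 0.16 ± 0.23 (edgeR adjusted p = 0.648).

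On the storage side, 2 of 4 listed loci rose in each genotype and none fell in edgeR. Over all genes tested, 2.54% rose in the wild type and 8.68% in the RNAi line. Ferritin, the iron storage protein, is encoded by FER1 (LOC_Os11g01530) and FER2 (LOC_Os12g01530), closely similar copies between which reads can have been divided. FER2 went from 3.14 ± 0.62 to 17.6 ± 3.36 CPM in the wild type, a rise of 2.48 ± 0.26 on the log2 scale (edgeR adjusted p = 0.000420), and FER1 from 2.69 ± 0.45 to 14.5 ± 3.43 CPM. In the RNAi line FER1 rose by 1.86 ± 0.23 (edgeR adjusted p = 0.000941) and FER2 by 1.65 ± 0.25 (edgeR adjusted p = 0.00307). The vacuolar iron transporters VIT1 (LOC_Os04g38940) and VIT2 (LOC_Os09g23300) did not pass, with wild type changes of 0.27 ± 0.29 and -0.27 ± 0.37. In the RNAi line their changes were -0.31 ± 0.28 and -0.58 ± 0.37, which did not pass either.

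**Figure D4:**
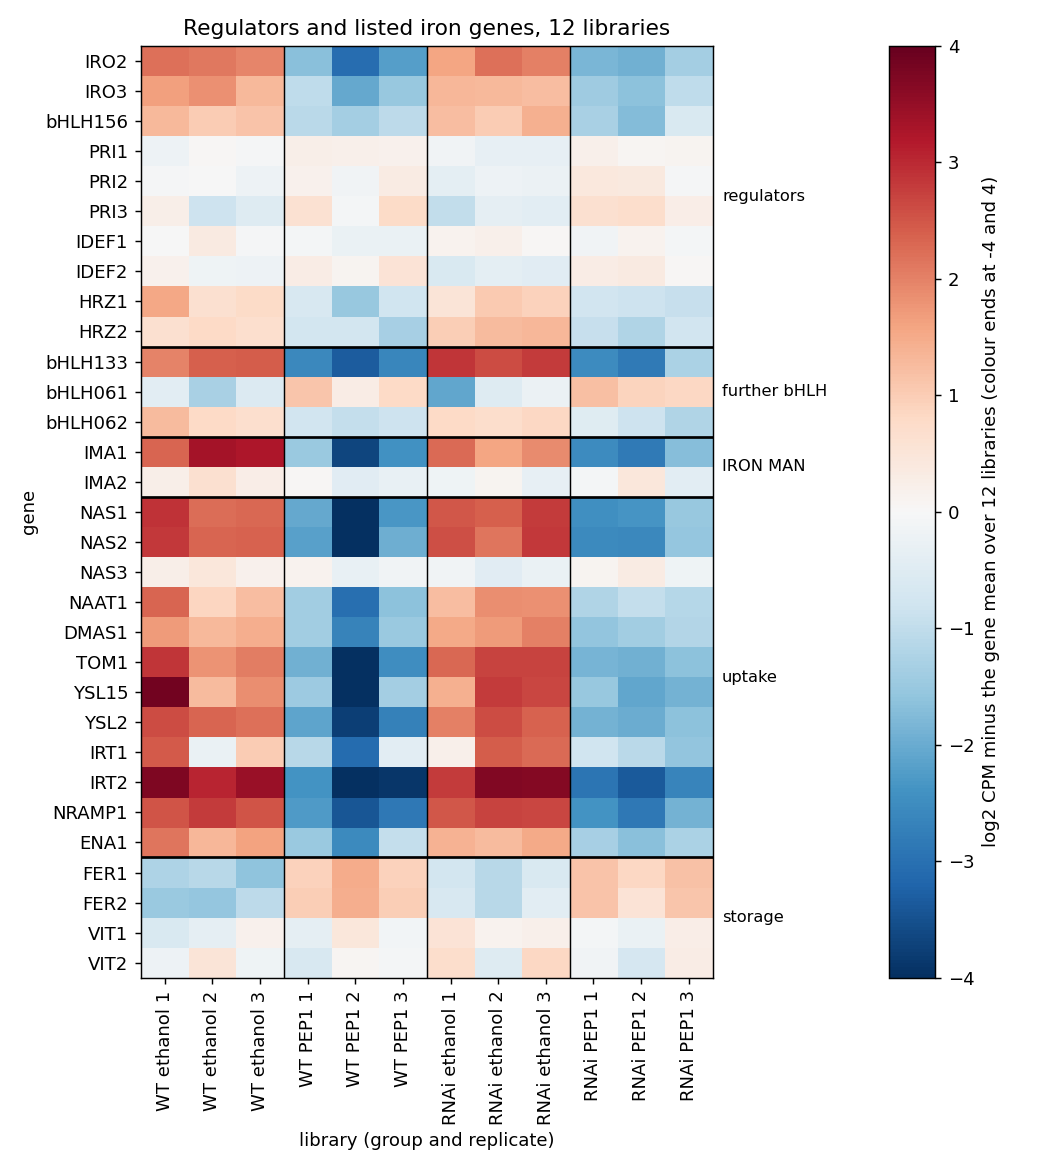
Log2 CPM of the 10 regulators and the listed iron genes (rows) in the 12 libraries (columns), each gene centred on its mean over the libraries, with red above and blue below it. IRO2, IRO3, bHLH156, HRZ1 and HRZ2 share the red ethanol and blue PEP1 blocks of most uptake genes, IMA1 and bHLH133, while the ferritins FER1 and FER2 show the opposite blocks and the PRI and IDEF rows stay pale.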

How the data were processed

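The deposited data were a single table with a raw count for each gene and library, not normalized. The aligner, genome build, annotation, counting tool and strand setting were not given in the sources used here, so reads of overlapping genes or near-identical copies could have been merged or divided. Columns were assigned to samples through the sample titles. Gene names are pairs of locus and symbol written by hand. None of the table's locus IDs occurs in the RefSeq gene table (assembly ASM3414082v1). Of the 39 symbols 22 were in it, and 18 lay on the chromosome of the locus ID at a relative position within 0.03, IRO3 and IDEF1 among the 10 regulators and none of the 2 IRON MAN and 3 further bHLH pairs. The other names rest on the hand-written pairs alone. That table lists IRO2 as a synonym of the IRO3 gene.

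Counts were tested with edgeR 4.0.16 (R 4.3.3) in 1 fit of 12 libraries and 4 groups, with TMM factors, the default filter and no covariate. The quasi-likelihood test was adjusted by Benjamini-Hochberg over 25602 genes. SE is the absolute log2 change divided by the square root of F, and 95% intervals use the fit's degrees of freedom. The script was tested on simulated data. Libraries of the same group all differed by more than sampling noise (chi-square per degree of freedom 14.98 or more). A count of 0 would allow up to 3 counts, 0.140 to 0.186 CPM, covering counting error only. Alternatives used DESeq2 1.42.0, limma 3.58.1 (voom), RLE factors, no filter, a replicate block, separate fits and libraries left out. The regulators and lists were chosen with earlier results of these data known. The text names all 10 regulators, the loci of each list with the largest and smallest change, all markers and VIT2. VIT2 was chosen after its values were seen. Only some of the 3 features nearest to each passing regulator are named.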

Additional observations from a re-analysis of the deposited data

How the results depend on the processing

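The 5 falling regulators passed in all 19 alternatives in both genotypes. The number passing in the wild type was 5 to 6 when single libraries were left out, and 6 without the 3 libraries that stood apart. In the RNAi line it was 5 to 9 with single libraries left out and 5 without those 3. Between genotypes and for the interaction it stayed at 0, and averaged over the genotypes it was 8 to 9.

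Counts over all genes moved more. With single libraries left out they ran from 571 to 2942 in the wild type (1330 as reported), 1293 to 5604 in the RNAi line (3934), 611 to 1046 between genotypes under ethanol (971), 449 to 757 under PEP1 (679), 0 to 6 for the interaction (1) and 4232 to 9028 for the average (6364). DESeq2 gave 2494, 6140, 1680, 1073 and 90 for the first 5. Separate fits gave 535 in the wild type and 596 under ethanol. Without the 3 libraries that stood apart the counts were 2882 in the wild type, 2339 in the RNAi line, 639 under ethanol and 4 for the interaction. The cause was not tested.

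Same-numbered libraries showed mixed correlations, which were not tested. Deviations from the group means of PEP1 and ethanol libraries correlated across genes by -0.32 to 0.34 in the wild type and -0.06 to 0.55 in the RNAi line. With the replicate block 1063 genes passed in the wild type, 3208 in the RNAi line and 2 in the interaction, and 5 and 7 regulators passed; PRI2 averaged over the genotypes was lost (0.38, edgeR adjusted p = 0.0519). It changed no other call on the regulators.

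Direction changed in 15 values without a call. Ranges with single libraries left out were, under ethanol, -0.05 to 0.16 (bHLH156), -0.48 to 0.07 (PRI3), -0.07 to 0.15 (IDEF1) and -0.36 to 0.13 (HRZ1). Under PEP1 they were -0.10 to 0.41 (IRO3), -0.34 to 0.26 (bHLH156), -0.14 to 0.24 (PRI3), -0.18 to 0.03 (IDEF2), -0.14 to 0.25 (HRZ1) and -0.22 to 0.06 (HRZ2). For the interaction they were -0.40 to 0.20 (bHLH156), 0.00 to 0.56 (PRI3) and -0.05 to 0.45 (HRZ1), and for the ratios -0.11 to 0.03 (PRI1 to PRI2) and -0.07 to 0.26 (HRZ1 to HRZ2). Without the 3 libraries IDEF1 (-0.10) and HRZ1 (0.02) under ethanol, PRI3 (-0.01) and HRZ2 (0.06) under PEP1 and the bHLH156 interaction (0.03) changed direction. bHLH156 under PEP1 did so in limma-voom (-0.03) and with the replicate block (-0.01).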

Other observations

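Further bHLH genes outside the 10 regulators changed with PEP1. The list held 3 loci, whose names could not be checked against the RefSeq gene table. Of these 2 fell in the wild type, and 2 fell and 1 rose in the RNAi line. Over all genes tested, 2.66% fell in the wild type, and 6.68% fell and 8.68% rose in the RNAi line. bHLH133 (LOC_Os12g32400), known for a role in the distribution of iron between root and shoot, had 49.3, 66.0 and 67.6 CPM in wild type ethanol and 2.12, 1.25 and 2.07 CPM in wild type PEP1. It fell by 5.06 ± 0.39 on the log2 scale in the wild type (SE, edgeR adjusted p = 6.60e-05) and fell by 4.79 ± 0.38 in the RNAi line (edgeR adjusted p = 8.38e-05), with larger estimates than those of IRO2; that difference was not tested. The size of the wild type fall of bHLH133 rests on low counts, as the PEP1 libraries held 43, 21 and 42 reads. bHLH062 (LOC_Os07g43530) fell by 1.79 ± 0.20 in the wild type and 1.57 ± 0.20 in the RNAi line. bHLH061 (LOC_Os11g38870) went from 2.42 ± 1.29 to 8.05 ± 1.12 CPM in the RNAi line, a rise of 1.73 ± 0.42 (edgeR adjusted p = 0.0220), and its wild type change of 1.48 ± 0.42 did not pass (edgeR adjusted p = 0.0710). Counts of bHLH061 were low too, at 19, 51 and 56 reads in RNAi ethanol replicates 1 to 3.

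For each regulator that passed, the nearest features were sought among all genes tested, by the root mean square difference in log2 CPM after each gene was centred on its mean over the 12 libraries. The nearest to IRO2 were LOC_Os01g46720 (0.29), LOC_Os10g11889 (0.30) and Novel00050 (0.32), beside a standard deviation of 2.14 for IRO2 itself. LOC_Os01g46720 had mean levels of 827 CPM in wild type ethanol and 53.0 CPM in wild type PEP1. LOC_Os04g57870 was nearest to IRO3 (0.27) and among the 3 nearest to bHLH156 (0.28), and ENA1 (LOC_Os11g05390), an efflux transporter of nicotianamine, came next for IRO3 (0.36). The nearest to bHLH156 was LOC_Os12g39860 (0.25). The nearest to HRZ1 included the loci LOC_Os04g57410 (0.22) and LOC_Os04g57400 (0.23), whose IDs are consecutive, and the nearest to HRZ2 was LOC_Os06g38930 (0.22). Among the 10 regulators themselves, the closest pair was PRI2 and IDEF2 (0.17). The distance is not scaled to a gene's own spread, so genes that vary little lie close to each other. PRI2 and IDEF2 had standard deviations of 0.27 and 0.36. IRO3 and bHLH156 lay 0.38 apart, beside standard deviations of 1.53 and 1.27. This measure describes likeness in these libraries, which share their treatments, and it was not tested.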
